A study of Mus musculus with 12 samples.

Results

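The integrated stress response is the pathway by which a cell slows protein synthesis and switches on genes for amino acid supply and repair. In sensory ganglia after nerve injury, 10 genes of this pathway and of stress of the endoplasmic reticulum were followed here. They are Chac1, Atf4, Atf5, Ddit3, Ddit4, Trib3, Asns, Sesn2, Slc7a11 and Hspa5, taken by symbol from the 23238 distinct gene symbols of the count files. Each stood on 1 row of the files, and all 10 were among the 15036 genes that passed the filter on low counts. The libraries hold messenger RNA of L3 to L5 dorsal root ganglia, the clusters of sensory nerve cell bodies beside the spinal cord, from C57BL/6 mice at postnatal week 8. There were 4 groups of 3 libraries: Female SNI, Female sham, Male SNI and Male sham, where SNI stands for sciatic nerve injury and sham for the control operation. No transgene or other agent is named in the labels, and neither the kind of injury nor the time after it is named there. The labels do not say that replicates were separate animals, so the p-values speak only to the spread among the libraries, part or all of which may be technical. The question put to the data was whether these genes differed between SNI and sham ganglia, in both sexes and between them.

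In this pathway, kinases that sense unfolded protein, missing amino acids, double-stranded RNA or heme shortage phosphorylate the initiation factor eIF2, which lowers translation in general while the transcription factor ATF4 is translated more. ATF4 pairs with C/EBP and other leucine zipper proteins and binds composite sites, the C/EBP-ATF response elements, in genes of amino acid uptake and synthesis, tRNA charging, redox balance and cell death. The unfolded protein response of the endoplasmic reticulum (ER) shares its kinase PERK and acts on a separate element, the ER stress response element, in chaperone genes such as Hspa5. Phosphorylated eIF2 and ATF4 protein were not measured, and counts of Atf4 messenger RNA do not show them.

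The promoter windows of some genes that hold these elements are printed to show where they lie, from RefSeq (GRCm38.p6). Each runs 5′ to 3′ on the gene's own strand, from 250 bases before the transcript start to the 50 bases from it, in lower case with the matched element in capitals. The C/EBP-ATF response element was searched as TGATGNAA, and the ER stress response element as CCAAT and CCACG with 9 bases between them, both on either strand. Chac1, Atf3, Slc1a4 and Gars are genes that rose after injury, Asns and Slc7a11 are members with the same element that did not pass the test, and Hspa5 carries the ER element. Mthfd2 and Psat1, which also rose, had neither element in their windows and are not printed.
Chac1 (chr2:119350992-119351291, plus strand): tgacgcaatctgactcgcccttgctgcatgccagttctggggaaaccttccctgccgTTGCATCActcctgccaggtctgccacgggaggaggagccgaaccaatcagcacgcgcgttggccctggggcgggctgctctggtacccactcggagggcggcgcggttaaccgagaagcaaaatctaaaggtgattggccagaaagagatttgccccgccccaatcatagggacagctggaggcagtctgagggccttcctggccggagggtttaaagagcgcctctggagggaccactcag
Atf3 (chr1:191183284-191183583, minus strand): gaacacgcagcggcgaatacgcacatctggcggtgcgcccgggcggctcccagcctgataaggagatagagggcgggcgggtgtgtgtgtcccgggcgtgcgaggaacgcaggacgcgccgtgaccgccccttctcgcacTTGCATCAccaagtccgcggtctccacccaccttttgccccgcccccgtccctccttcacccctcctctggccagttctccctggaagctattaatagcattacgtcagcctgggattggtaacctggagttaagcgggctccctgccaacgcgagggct
Slc1a4 (chr11:20332664-20332963, minus strand): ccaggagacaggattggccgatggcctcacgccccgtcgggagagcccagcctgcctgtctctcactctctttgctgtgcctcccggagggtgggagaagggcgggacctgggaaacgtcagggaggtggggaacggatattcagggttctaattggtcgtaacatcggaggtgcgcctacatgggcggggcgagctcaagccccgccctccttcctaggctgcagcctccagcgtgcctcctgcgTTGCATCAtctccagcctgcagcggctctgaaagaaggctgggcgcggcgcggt
Gars (chr6:55037751-55038050, plus strand): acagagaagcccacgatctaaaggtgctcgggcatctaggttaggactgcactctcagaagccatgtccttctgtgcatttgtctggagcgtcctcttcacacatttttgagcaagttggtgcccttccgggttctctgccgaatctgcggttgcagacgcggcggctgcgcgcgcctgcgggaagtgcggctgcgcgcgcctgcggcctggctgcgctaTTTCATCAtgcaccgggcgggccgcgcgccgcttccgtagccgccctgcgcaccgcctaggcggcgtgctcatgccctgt
Asns (chr6:7693160-7693459, minus strand): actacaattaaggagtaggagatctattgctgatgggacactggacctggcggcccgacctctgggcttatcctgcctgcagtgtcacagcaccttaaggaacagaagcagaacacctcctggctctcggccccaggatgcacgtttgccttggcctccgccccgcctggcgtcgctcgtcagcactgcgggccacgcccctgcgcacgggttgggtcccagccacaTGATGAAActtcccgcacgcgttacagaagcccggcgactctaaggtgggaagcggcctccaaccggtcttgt
Slc7a11 (chr3:50443564-50443863, minus strand): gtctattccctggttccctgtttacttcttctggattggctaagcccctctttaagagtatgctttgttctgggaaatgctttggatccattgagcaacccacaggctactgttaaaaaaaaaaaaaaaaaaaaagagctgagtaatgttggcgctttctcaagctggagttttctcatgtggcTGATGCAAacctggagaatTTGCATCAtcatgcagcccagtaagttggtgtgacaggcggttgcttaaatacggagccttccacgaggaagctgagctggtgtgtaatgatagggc
Hspa5 (chr2:34771840-34772139, plus strand): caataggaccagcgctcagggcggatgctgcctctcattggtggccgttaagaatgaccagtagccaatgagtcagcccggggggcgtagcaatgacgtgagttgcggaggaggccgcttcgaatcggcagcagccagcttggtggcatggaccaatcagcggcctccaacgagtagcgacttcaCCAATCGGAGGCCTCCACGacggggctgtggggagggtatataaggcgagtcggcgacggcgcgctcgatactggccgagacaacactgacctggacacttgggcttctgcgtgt

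The C/EBP-ATF match began 193 bases before the start in Chac1, 110 before it in Atf3, 30 before it in Gars, 23 before it in Asns and 4 before it in Slc1a4. Slc7a11 held a pair of matches on opposite strands, at 66 and 47 bases before the start. Trib3 held a match that began 14 bases after the start. The remaining members, Atf4, Atf5, Ddit3, Ddit4, Sesn2 and Hspa5, had no C/EBP-ATF match in this window, which says only that these letters are not there. The ER element of Hspa5 began 65 bases before the start. Of 27025 genes with a RefSeq window, 4.51% held a C/EBP-ATF match and 0.14% held an ER match, beside 4 and 1 of the 10 members. Among the other pathway lists described below, 5 of 11 aminoacyl-tRNA synthetase genes with a window held the C/EBP-ATF match, and 7 of 16 ER chaperone genes held the ER match. These matches are a description of the sequence, not of binding.

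**Figure D1:**
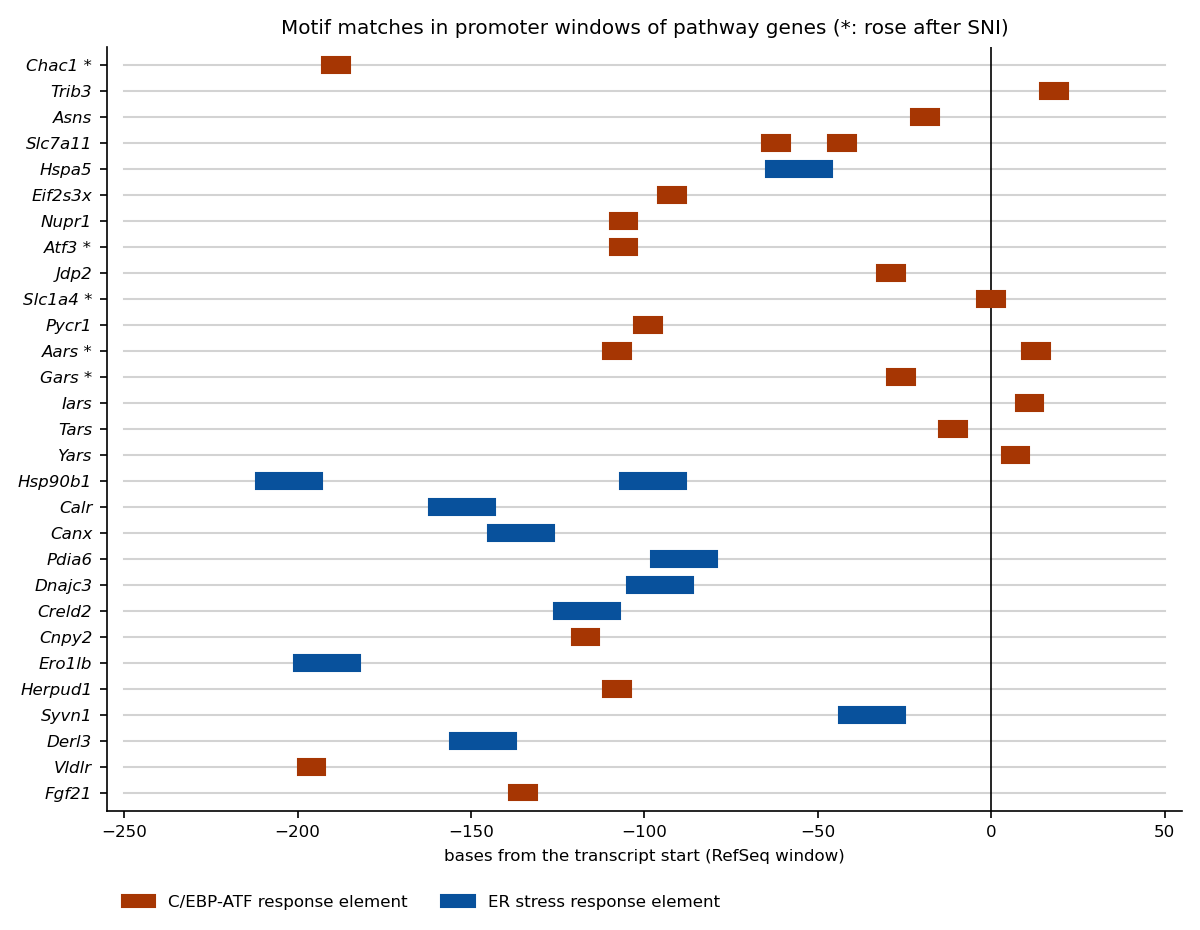
Positions of motif matches in the promoter windows of pathway genes that held one (horizontal axis: bases from the transcript start; red boxes: C/EBP-ATF response element; blue boxes: ER stress response element; asterisk: gene that rose after SNI). The Chac1 match lies 193 bases before the start, and ER matches are seen in the chaperone genes, which have no asterisk.

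The 12 libraries held 12476606 to 15520746 counts each. On the first principal component of log2 CPM, which carried 36.7% of the variance, Male SNI replicate 2 (score 76.7) and Female sham replicate 2 (39.5) stood apart from the other 10 libraries (-27.4 to 1.90), and the results that rest on them are given with and without them. All 10 sensory neuron markers, Tubb3 and Uchl1 among them, were detected, with a summed level of 11430 to 15750 CPM. Of these 10 markers 5 fell after SNI. CPM are counts scaled to a common library total by the trimmed mean of M values. Each level below is in this unit, which is not divided by gene length, since the kit reads 3′ ends.

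Chac1 was the member that passed the test for injury averaged over the sexes with all 12 libraries. It encodes an enzyme that breaks down glutathione and is a known target of ATF4 and CHOP (chromosome 2, 119351242 to 119354326, GRCm38.p6). Its level was 11.5, 19 and 16.8 CPM in the Female SNI libraries and 7.80, 6.81 and 6.34 CPM in the Female sham libraries. In males it was 13.0, 15.1 and 11.9 CPM after SNI and 2.60, 6.43 and 6.88 CPM after sham. Every SNI library was above every sham library, as held for 2.79% of all tested genes, and the lowest of the 12 was Male sham replicate 1. Averaged over the sexes, Chac1 rose 2.38-fold, by 1.25 ± 0.23 on the log2 scale (SE; 95% interval 0.77 to 1.73; edgeR quasi-likelihood test, adjusted p = 0.00378). It was called in all 12 fits that left out 1 library, with log2 changes of 1.09 to 1.37 and adjusted p of 0.00157 to 0.0149, and at 1.2 without Male SNI replicate 2 and Female sham replicate 2 together (adjusted p = 0.00134). The counts behind these levels were 35 to 280 reads per library.

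Of the 10 members, 1 rose and 0 fell for injury averaged over the sexes, where 3.78% of all tested genes rose and 2.73% fell. The median log2 change of the members was 0.33, beside 0.00 for all tested genes, and 9 of 10 were above 0. By edgeR, 4 of the 10 (Chac1, Atf4, Atf5 and Asns) had an unadjusted p below 0.05, beside 18.4% of all tested genes. Male SNI replicate 2 had the highest level of the 12 libraries in 5 members: Atf4, Atf5, Ddit3, Trib3 and Hspa5. The same library was the highest for 22.5% of all tested genes.

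**Figure D2:**
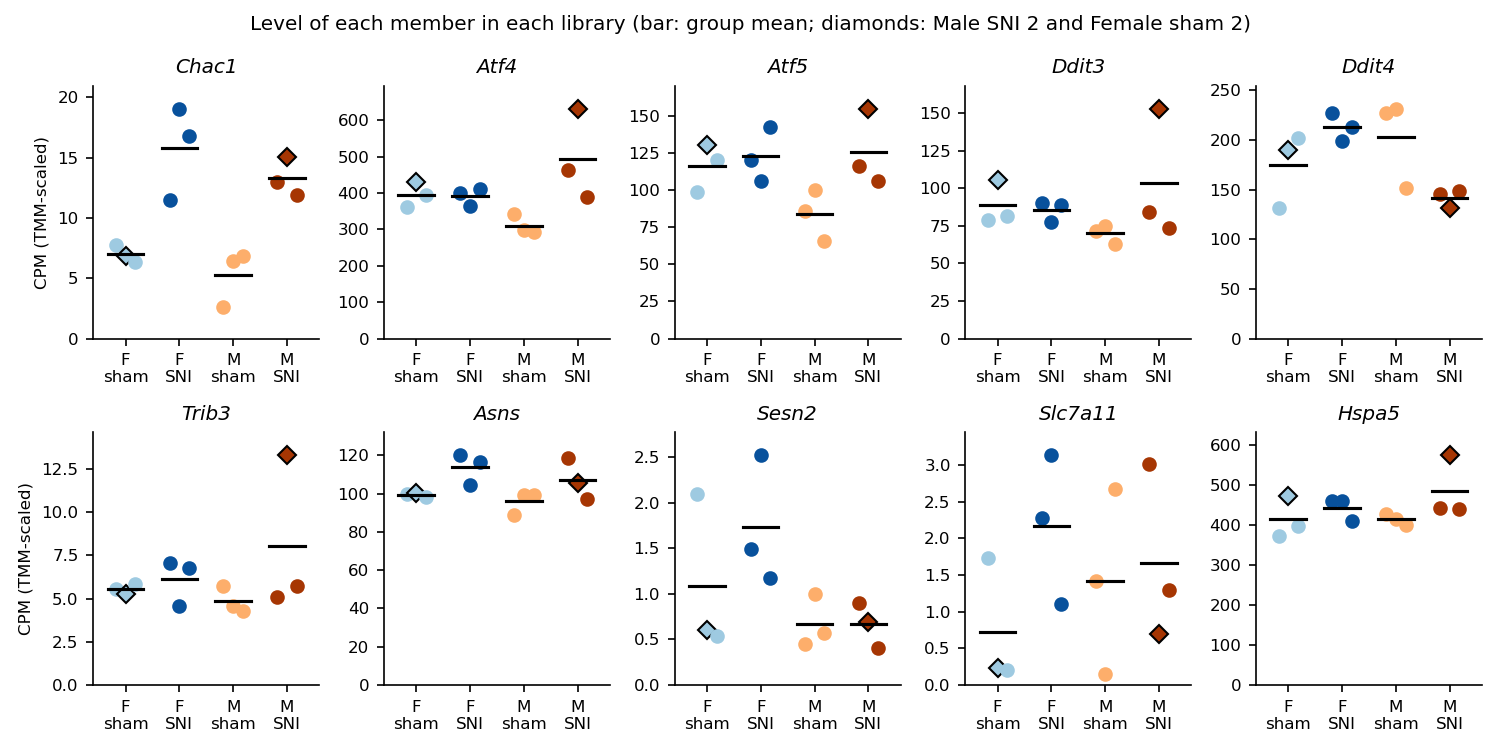
Level of each member in each library (vertical axis: CPM, from 0; F and M: females and males; points: libraries; bars: group means; outlined diamonds: Male SNI 2 and Female sham 2). Chac1 separates SNI (11.5 to 19 CPM) from sham (2.60 to 7.80 CPM) in both sexes. The diamond of Male SNI 2 is the highest point for Atf4, Atf5, Ddit3, Trib3 and Hspa5, as that library is for 22.5% of all tested genes.

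None of the 3 transcription factors among the members passed the test over both sexes. Atf4, the central activator (chromosome 15, 80255184 to 80257545), was at 401, 365 and 412 CPM in Female SNI and at 361, 430 and 394 CPM in Female sham libraries. In males it was at 464, 631 and 389 CPM after SNI and at 341, 299 and 292 CPM after sham. The female groups overlapped, while every Male SNI library was above every Male sham library. Averaged over the sexes its log2 change was 0.33 ± 0.11 (95% interval 0.09 to 0.57; adjusted p = 0.103). With 1 library left out the adjusted p was 0.0245 to 0.21, and the value passed in 1 such fit, that without Male SNI replicate 3. It also passed without Male SNI replicate 2 and Female sham replicate 2 together (0.26 ± 0.08; adjusted p = 0.0257).

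Atf5, a relative of ATF4 that is translated under the same control (chromosome 7, 44812256 to 44816658), was at 120, 106 and 143 CPM in Female SNI and at 98.6, 130 and 120 CPM in Female sham libraries. Its level was 116, 155 and 106 CPM in Male SNI and 85.6, 100.1 and 65.7 CPM in Male sham libraries. The groups overlapped in females and did not in males, and the averaged log2 change was 0.33 ± 0.13 (adjusted p = 0.18). Ddit3, which encodes the death-linked factor CHOP (chromosome 10, 127290793 to 127296291), was at 89.9, 77.9 and 89.0 CPM in Female SNI and 78.9, 105.6 and 81.4 CPM in Female sham libraries. It was at 84.2, 153 and 73.7 CPM in Male SNI and 71.5, 75.2 and 63.2 CPM in Male sham libraries, so that the groups overlapped in both sexes. Its averaged log2 change of 0.26 ± 0.16 (adjusted p = 0.441) was 0.07 ± 0.10 without Male SNI replicate 2. Exons of Atf5 overlap those of Nup62 and Il4i1, and exons of Ddit3 overlap those of Mars, on the opposite strand by 82 and 68 bases. How the counting used strand is not given, so both values are uncertain to that extent.

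Trib3, a pseudokinase that ATF4 and CHOP induce and that restrains both (chromosome 2, 152337425 to 152344060), was at 4.27 to 7.09 CPM in 11 libraries and at 13.3 CPM in Male SNI replicate 2. Its averaged log2 change of 0.43 ± 0.25 (adjusted p = 0.402) was 0.16 ± 0.21 without that library. In the same library the summed levels of satellite glia markers (8528 CPM) and heat shock genes (7511 CPM) were above those of the other 11 libraries, which held 4587 to 6158 and 4112 to 6123 CPM. The sum of the sensory neuron markers was also at its highest there, at 15750 CPM, and that of the fibroblast markers was at its lowest, at 1301 CPM. The part of these in the levels of Atf4, Ddit3 and Trib3 was not tested.

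Among the effectors, Asns makes asparagine (chromosome 6, 7675165 to 7693209). It was at 120, 105 and 116 CPM in Female SNI and 99.8, 100.4 and 98.0 CPM in Female sham libraries, without overlap. In males it was at 119, 106 and 97.1 CPM after SNI and 88.9, 99.5 and 99.4 CPM after sham, with overlap. The averaged log2 change was 0.18 ± 0.08 (95% interval 0.00 to 0.35; adjusted p = 0.271), so that a rise above 0.35 lies outside the interval.

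Hspa5 encodes BiP, the main chaperone of the ER (chromosome 2, 34772090 to 34776529). It was at 460, 459 and 411 CPM in Female SNI and 371, 473 and 396 CPM in Female sham libraries. In males its level was 443, 573 and 439 CPM after SNI and 426, 416 and 399 CPM after sham, and there the groups did not overlap. Its averaged log2 change was 0.17 ± 0.09 (95% interval -0.03 to 0.37; adjusted p = 0.392), and 0.10 ± 0.07 without Male SNI replicate 2.

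Ddit4, also called Redd1, a brake on the growth kinase mTORC1 (chromosome 10, 59949675 to 59951770), was the member with a negative averaged change, at -0.11 ± 0.13 (adjusted p = 0.722). It was at 227, 199 and 213 CPM in Female SNI and 131, 189 and 202 CPM in Female sham libraries. In males it was at 145, 132 and 148 CPM after SNI and 227, 231 and 152 CPM after sham, where every SNI library was below every sham library. The change was 0.29 ± 0.18 in females (adjusted p = 0.497) and -0.52 ± 0.18 in males (adjusted p = 0.181).

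Sesn2 and Slc7a11 had few counts. Sesn2, which reports leucine shortage to mTORC1 (chromosome 4, 132492804 to 132510456), had 6 to 37 counts per library, with 0.411 to 2.52 CPM in SNI and 0.446 to 2.1 CPM in sham libraries. Slc7a11, the cystine transporter that feeds glutathione synthesis (chromosome 3, 50364936 to 50499087), had 2 to 46 counts, with 0.692 to 3.13 CPM in SNI and 0.153 to 2.68 CPM in sham libraries. Their log2 changes of 0.33 (95% interval -0.76 to 1.42; adjusted p = 0.815) and 0.91 (95% interval -0.54 to 2.36; adjusted p = 0.547) were too uncertain at this depth to set a change as large as that of Chac1 apart from none. With 1 library left out, the change of Sesn2 ranged from 0.15 (without Female SNI replicate 2) to 0.78 (without Female sham replicate 1). That of Slc7a11 ranged from 0.54 (without Male SNI replicate 1) to 1.76 (without Female sham replicate 1).

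**Figure D3:**
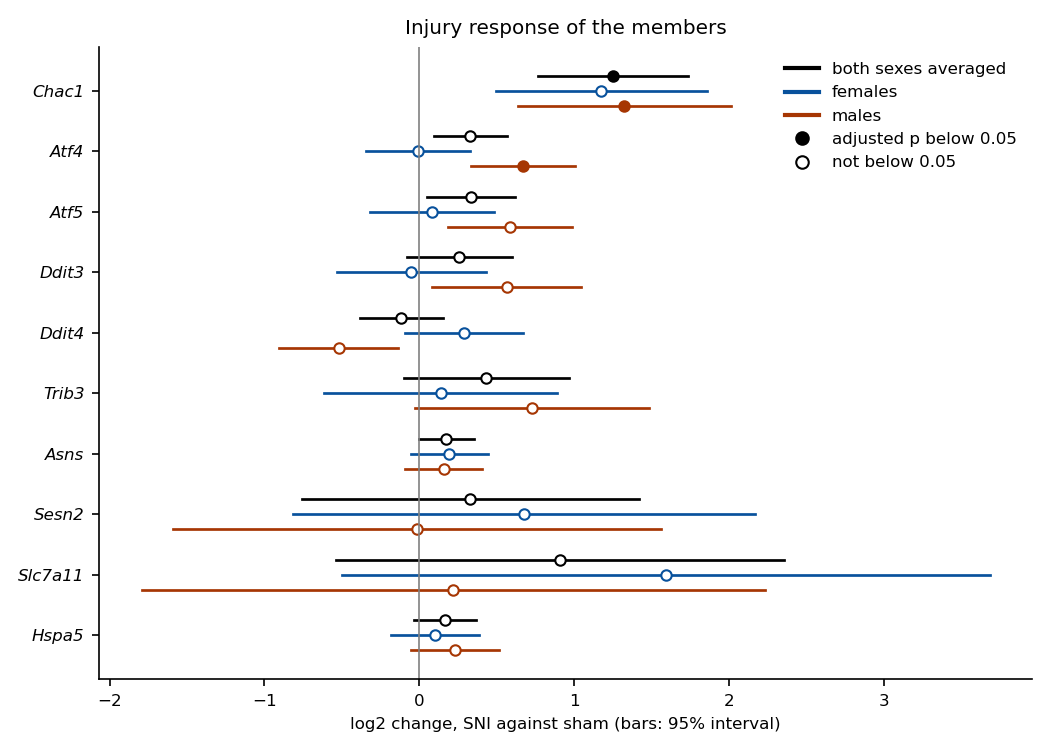
Log2 change of each member, SNI against sham (points: estimates; bars: 95% interval; black: sexes averaged; blue: females; red: males; filled: adjusted p below 0.05). Filled points are Chac1 averaged (1.25) and in males (1.33) and Atf4 in males (0.67), and the widest bars belong to Slc7a11 and Sesn2.

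Each sex was also tested alone within the same model. In females 0 of 10 members were called by edgeR, where 1.60% of all tested genes rose. Chac1 was at 1.18 ± 0.32 (adjusted p = 0.0676), the DESeq2 test and limma with quality weights each called 1 member, Chac1, and 1 member had an unadjusted p below 0.05, as did 15.2% of all tested genes. Atf4 was at -0.01 ± 0.16 in females (95% interval -0.34 to 0.33). In males 2 of 10 members were called and both rose, where 1.65% of all tested genes rose: Chac1 at 1.33 ± 0.32 (adjusted p = 0.0496) and Atf4 at 0.67 ± 0.16 (adjusted p = 0.0424). By edgeR, 5 members had an unadjusted p below 0.05 in males, as did 2185 of all 15036 tested genes. Chac1, Atf4, Atf5 and Ddit3 were higher after SNI among them, and Ddit4 was lower. Chac1 in males was kept in 1 of the 12 fits with a library left out, the one without Male SNI replicate 3, and its change lay between 1.0 and 1.57 (adjusted p of 0.0421 to 0.145). Atf4 in males was kept in 3 of them, those that lacked Male SNI replicate 2, Male SNI replicate 3 or Female sham replicate 1, with changes of 0.46 to 0.82 (adjusted p of 0.00772 to 0.172 over the 12). It was also lost with replicate number as a block (0.66; adjusted p = 0.058), and with the 6 male libraries alone neither Atf4 (0.68; adjusted p = 0.256) nor Chac1 was called.

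The mean level of Atf4 was 495 ± 124 CPM in Male SNI and 311 ± 26.8 CPM in Male sham libraries (SD, n = 3), beside 393 ± 24.9 and 395 ± 34.6 CPM in females. The log2 difference of the sham groups, males minus females, was -0.35 ± 0.16 (adjusted p = 0.938). Without Male SNI replicate 2 the male change was 0.46 ± 0.12 (adjusted p = 0.0366). Other members had smaller male values without that library: Ddit3 was at 0.18 in place of 0.57, Trib3 at 0.17 in place of 0.73, Hspa5 at 0.09 in place of 0.23 and Atf5 at 0.41 in place of 0.58, none of them called. In all, 4 members (Chac1, Atf4, Atf5 and Hspa5) had every Male SNI library above every Male sham library, as did 9.09% of all tested genes, and 1 (Ddit4) had every one below, as did 8.83%. In females 2 members (Chac1 and Asns) were above in this sense, as were 13.1% of all genes.

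The difference between the sexes was tested by the interaction, in which a positive value means a higher log2 change in males. By edgeR 0 of 10 members were called, and 0% of the 15036 genes, and DESeq2 and limma also called 0. At an unadjusted p below 0.05 there were 2 members, beside 7.32% of all genes. These were Ddit4, with an interaction of -0.81 ± 0.25 (unadjusted p = 0.00629, adjusted p = 0.647), and Atf4, at 0.68 ± 0.22 (unadjusted p = 0.00846, adjusted p = 0.647). For Chac1 the interaction was 0.15 ± 0.44, with a 95% interval of -0.81 to 1.1, which does not show that the sexes respond alike.

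**Figure D4:**
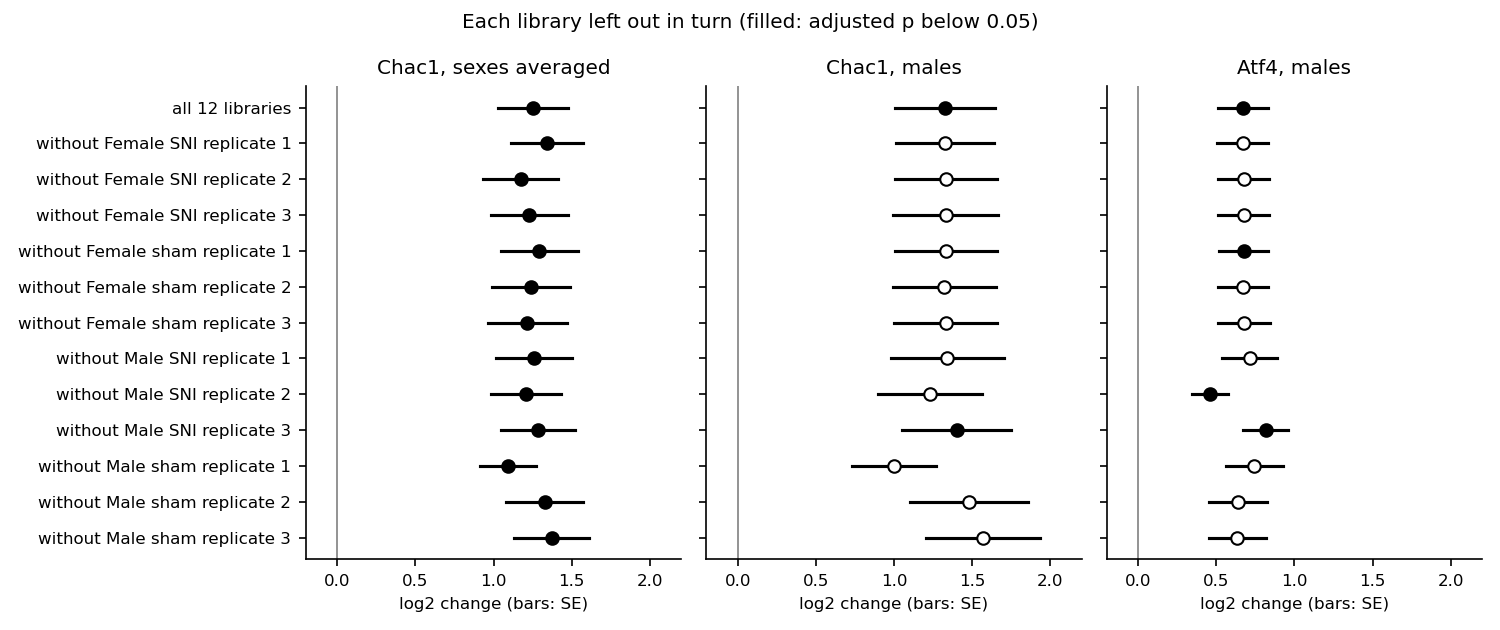
Log2 change of Chac1 averaged over the sexes, Chac1 in males and Atf4 in males with all 12 libraries and with each left out in turn (bars: SE; filled: adjusted p below 0.05). All points of the averaged Chac1 change are filled (1.09 to 1.37), whereas in males 1 of the 12 points is filled for Chac1 and 3 for Atf4.

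The rest of the pathway was read from 11 lists with 120 genes in the files, of which 113 were tested. Of these 113, 10 rose and 0 fell, beside the 3.78% and 2.73% of all tested genes, with a median log2 change of 0.13. The genes that rose belonged to 5 lists, those of leucine zipper partners, amino acid transporters, serine, glycine and one-carbon synthesis, tRNA synthetases and mTORC1 brakes. By edgeR, 25 of the 113 had an unadjusted p below 0.05, beside 18.4% of all tested genes. They included 7 of 18 tRNA synthetase genes, 4 of 9 serine, glycine and one-carbon genes and 4 of 10 glutathione genes. The lists of partners, transporters, mTORC1 brakes and further ATF4 or CHOP targets held 3 of 8, 2 of 8, 2 of 9 and 2 of 9.

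ATF4 acts with leucine zipper partners. Of 8 leucine zipper factors and cofactors 2 rose, with a list median of 0.33. Atf3, a stress factor that sensory neurons switch on when their axons are cut, went from 43.6 to 56.7 CPM in sham libraries to 275 to 361 CPM in SNI libraries, a log2 change of 2.63 ± 0.09 (adjusted p = 7.2e-10). Cebpd, a C/EBP family member, was at 0.90 ± 0.23 (adjusted p = 0.0315), with 8.25 to 20.5 CPM in sham and 15.3 to 39.0 CPM in SNI libraries. The SNI libraries of Cebpd overlapped sham in males, its exons overlap Spidr on the opposite strand, and its call was lost in 8 of the 12 fits without a library, those lacking Female sham replicate 3, Female SNI replicate 1 or 2, Male SNI replicate 1 or 3, or any of the Male sham replicates (adjusted p of 0.00158 to 0.0879 over the 12).

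Of 8 amino acid transporter genes 1 rose and 0 fell (list median 0.24). This was Slc1a4, which encodes ASCT1, a transporter of neutral amino acids such as serine and alanine. It was at 123, 114 and 123 CPM in Female SNI against 58.7, 86.6 and 62.6 CPM in Female sham libraries. In males it was at 111, 192 and 112 CPM against 59.5, 55.1 and 64.6 CPM, so that no SNI library overlapped sham. It rose 2-fold, by 1.0 ± 0.15 on the log2 scale (adjusted p = 0.000705). Slc38a2, the transporter SNAT2, was at 0.11 ± 0.13.

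Of 9 genes of serine, glycine and one-carbon synthesis, 2 rose and 0 fell. Mthfd2, a mitochondrial enzyme of folate-bound one-carbon units, was at 108 to 144 CPM in SNI and 60.3 to 78.2 CPM in sham libraries, and rose by 0.74 ± 0.10 (adjusted p = 4e-04). Psat1, an aminotransferase of serine synthesis, was at 36.0 to 47.2 CPM in SNI and 23.0 to 33.8 CPM in sham libraries, and rose by 0.57 ± 0.12 (adjusted p = 0.0112). For both genes every SNI library was above every sham library. Atf3, Slc1a4, Mthfd2, Psat1 and Gars were called in all 12 fits that left out 1 library.

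Aminoacyl-tRNA synthetases load each tRNA with its amino acid. Of 18 such genes 4 rose and 0 fell, all 18 had a change above 0, and the median was 0.21. Gars, for glycine, was at 305 to 418 CPM in SNI and 230 to 300 CPM in sham libraries (0.44 ± 0.09; adjusted p = 0.0102). Cars, for cysteine, was at 0.57 ± 0.15 (adjusted p = 0.0321), Wars, for tryptophan, at 0.36 ± 0.10 (adjusted p = 0.0435) and Aars, for alanine, at 0.32 ± 0.09 (adjusted p = 0.0445). Aars shares the last 500 bases of its transcript with Exosc6 on the same strand, so its count is uncertain, and Cars has an identical stretch in the pseudogene Gm15580. The calls of Cars, Wars and Aars were lost in 7, 9 and 9 of the 12 fits. All 3 were lost on leaving out any single Female SNI replicate, Male sham replicate 1 or 3, or Female sham replicate 1 or 3. Wars and Aars were also lost on leaving out Male SNI replicate 1, Wars on leaving out Female sham replicate 2 and Aars on leaving out Male sham replicate 2. The adjusted p of the 3 genes lay between 0.0209 and 0.126 in these fits. Nars, for asparagine, was at 0.15 ± 0.10.

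mTORC1 drives growth and protein synthesis when amino acids suffice. Of 9 genes listed as its brakes 1 rose, 0 fell and 2 had a change above 0 (median -0.15). The gene that rose, Eif4ebp1, encodes a translation repressor that mTORC1 inactivates and ATF4 is known to induce, rather than a brake on the kinase itself. It was at 7.22 to 19.5 CPM in SNI and 3.94 to 8.12 CPM in sham libraries (0.95 ± 0.26; adjusted p = 0.0427), and the call was lost in 10 of the 12 fits (adjusted p of 0.0027 to 0.122). It was kept on leaving out Male SNI replicate 2 or Female SNI replicate 1. Deptor, an inhibitor bound to the kinase complex, was at 0.04 ± 0.14.

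No other list held a called gene. None of 6 eIF2 kinase and phosphatase genes passed (median 0.09), nor did any of 8 eIF2 and eIF2B subunit genes (median 0.15), with 0 of either at an unadjusted p below 0.05, beside 18.4% of all tested genes. Ppp1r15b, a subunit of the phosphatase that removes the eIF2 mark, was at 0.12 ± 0.16, and Eif2s2, the beta subunit of eIF2, which has a near-identical pseudogene copy, at 0.27 ± 0.13. The list of glutathione synthesis and breakdown, the substrate pathway of the Chac1 enzyme, had 0 of 10 called and a median of -0.06. Its member Gclc, which carries out the first step of glutathione synthesis, is given after its value was seen: it was at -0.38 ± 0.11 (adjusted p = 0.0605). It was called as falling by the DESeq2 test, with limma's quality weights, with the replicate block, without Male SNI replicate 3, and without Male SNI replicate 2 and Female sham replicate 2 together. Other genes of this list were called as rising in some of the same runs. These were Txnrd1 with quality weights and without Male SNI replicate 2 and Female sham replicate 2 together, and Ggt5 without Male SNI replicate 3. Gpx4, which uses glutathione to detoxify lipid peroxides, was at -0.20 ± 0.11 and has near-identical pseudogene copies.

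ER chaperones fold secreted and membrane proteins and are the classical readout of ER stress. Of 18 ER chaperone and folding genes 0 were called, 0 had an unadjusted p below 0.05, and the median was 0.06, with Canx, the lectin chaperone calnexin, at 0.08 ± 0.11. Of 10 genes of unfolded protein response sensors and ER-associated degradation 0 were called and 1, Derl1, had an unadjusted p below 0.05 (median 0.12), with Sel1l, an adaptor of the degradation complex, at -0.12 ± 0.10. Ern1, the gene of the ER sensor IRE1, named here for its outlying point in the plot of lists, was at 1.54 ± 0.85 (adjusted p = 0.38) on no more than 15 counts in any library. Without Male SNI replicate 2, 1 gene of each of these ER lists was called, Pdia6 and Xbp1. Pdia6 was not called when Female sham replicate 2 was left out as well (edgeR, adjusted p = 0.0559), nor with limma's quality weights. Xbp1 and Derl1 were called in both of those runs. Of 9 further targets of ATF4 or CHOP 0 were called (median 0.13), with the autophagy receptor gene Sqstm1, whose transcript end is shared with Mrnip, at 0.10 ± 0.09.

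**Figure D5:**
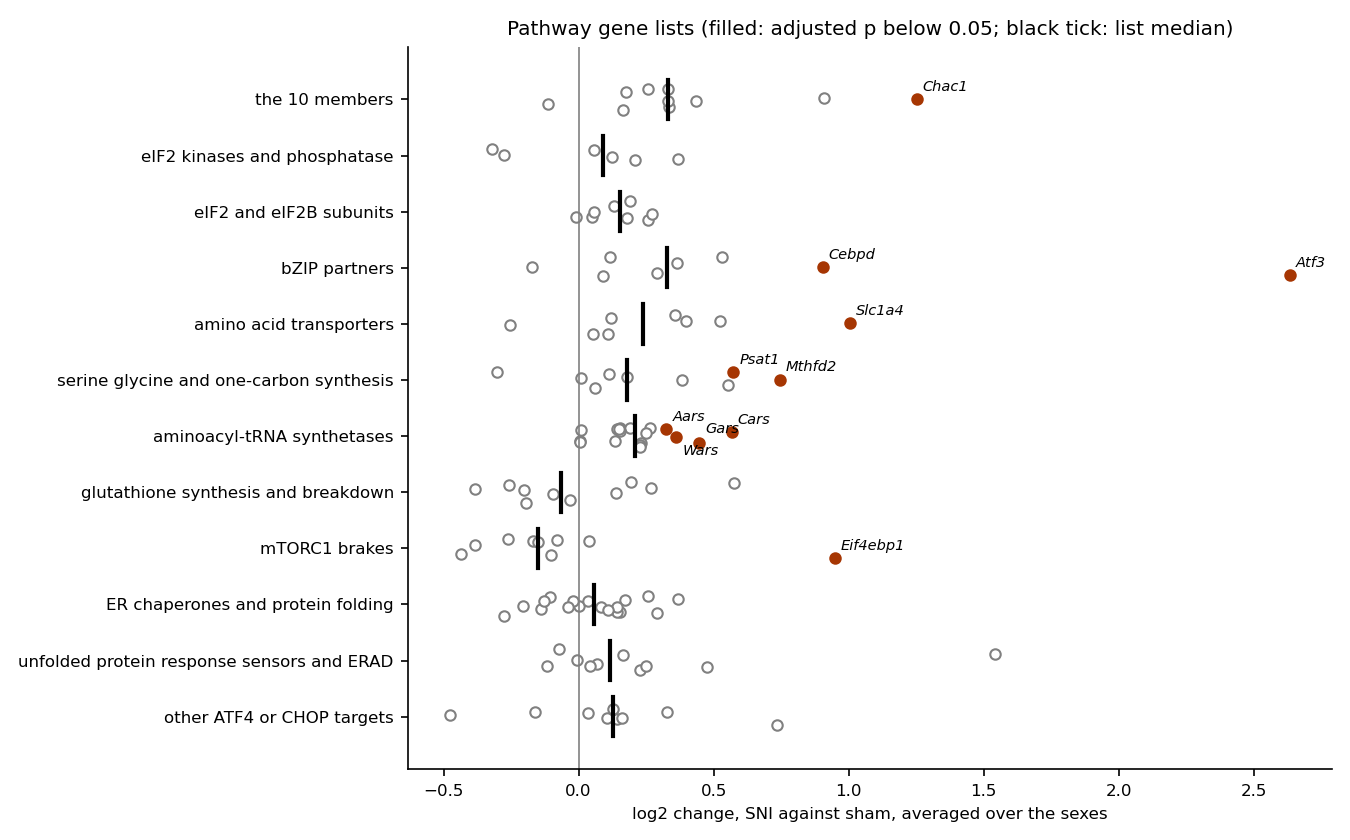
Log2 change of every tested gene in the members and the 11 other lists, sexes averaged (points: genes; filled red with name: adjusted p below 0.05; black ticks: list medians; vertical position within a list is arbitrary). Called genes lie to the right in the member, supply, tRNA, partner and mTORC1 brake lists, from Aars (0.32) to Atf3 (2.63), and the ER chaperone list (median 0.06) has none.

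These counts depended on Male SNI replicate 2. Without it 17 genes of the lists were called, including all 10 above, and the additional 7 were Cebpg, Eif2s1, Kars, Pdia6, Slc3a2, Slc7a5 and Xbp1, described after their values were seen. The calls over all genes also grew: 952 rose and 814 fell of 15349 tested without it, beside 569 and 411 of 15036 with it. In this library each of the 7 was below the other 5 SNI libraries, which follows from choosing genes that passed once it was left out. Atf4, Ddit3 and Trib3 were at their highest there and were singled out for that. No opposite pattern is therefore read from this library. Slc3a2 and Slc7a5, which together form the leucine transporter LAT1, were at 123 and 7.61 CPM in it, while the other 5 libraries of injured mice held 223 to 253 and 19.5 to 31.5 CPM. Sham libraries held 143 to 190 CPM of Slc3a2 and 11.1 to 23.7 CPM of Slc7a5. Xbp1, the factor spliced by the ER sensor IRE1, was at 11.9 CPM in it, while the other 5 libraries of injured mice held 48.6 to 66.9 CPM and the sham libraries 17.5 to 46.3 CPM. Its log2 change was 0.47 ± 0.31 (adjusted p = 0.484) with the library and 0.70 ± 0.18 (adjusted p = 0.0147) without it. For Slc3a2 the values were 0.40 ± 0.14 (adjusted p = 0.117) and 0.53 ± 0.08 (adjusted p = 0.000208), and for Slc7a5 0.36 ± 0.28 (adjusted p = 0.571) and 0.57 ± 0.17 (adjusted p = 0.0358). Over the 113 genes this library was the highest of 12 for 33 and the lowest for 35, and over all tested genes it was the highest for 22.5% and the lowest for 24.0%. Leaving out Female sham replicate 2 as well gave 22 called genes, again with all 10 above, of which 21 rose and 1, Gclc, fell. Pdia6 was not among them. Over all 15290 genes tested in that fit, 1023 rose and 825 fell.

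The promoter windows were set beside these calls. Of the 11 genes called among the members and lists, 7 had a window in the RefSeq table and 5 of these held a C/EBP-ATF match: Chac1, Atf3, Slc1a4, Aars and Gars. Mthfd2 and Psat1 had a window and no match. Of 112 genes that were tested and not called, 92 had a window and 12 held a match. The lists were drawn from known genes of the pathway, so these shares are given without a test.

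Profiles over the 12 libraries were compared with those of Chac1 and Atf4, among genes with a mean of at least 5 CPM, by the root mean square distance of log2 CPM scaled to a mean of 0 and an SD of 1. The genes nearest to Chac1 were Tecta (0.205), C3 (0.392), Micall1 (0.393), Itga7 (0.414) and Sox11 (0.422). All of them rose after injury, which largely follows from choosing them by likeness to Chac1. Tecta was at 18.4 to 24.5 CPM in SNI and 5.5 to 15.3 CPM in sham libraries. The nearest member to Chac1 was Asns, at a distance of 0.708, and Atf4 was at 0.964. The genes nearest to Atf4 were Mrgpre (0.267), Lmna (0.268), Slc29a3 (0.282), Mfhas1 (0.288) and Ddah1 (0.29). Each was at its highest in Male SNI replicate 2, as was Atf4, which likewise largely follows from the choice. The nearest members to Atf4 were Ddit3 (0.422), Trib3 (0.562) and Atf5 (0.566).

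Among markers of other cells of the ganglion, those of macrophages also changed with injury. Of 10 macrophage markers 9 rose, and their summed level was 134 to 189 CPM in Female sham, 321 to 399 CPM in Female SNI, 118 to 155 CPM in Male sham and 268 to 448 CPM in Male SNI libraries, with no marker at 0 in all libraries. The summed level of immediate early genes was 348 to 388 CPM in Female SNI, 189 to 219 CPM in Female sham, 278 to 388 CPM in Male SNI and 182 to 207 CPM in Male sham libraries, and 1 of 8 tested rose. Heat shock genes, of which 1 of 7 rose, summed to 4905 to 7511 CPM in Male SNI and 4170 to 4408 CPM in Male sham libraries, while the female groups overlapped. The sensory neuron sum was 11430 to 12070 CPM in Female SNI and 13350 to 15240 CPM in Female sham libraries, while the male groups overlapped. The part of these sums in the members' values was not tested. Satellite glia, Schwann cell, endothelial and fibroblast sums overlapped between SNI and sham. The skeletal muscle sum was 1407 CPM in Male SNI replicate 1 and 7.48 to 66.5 CPM in the others, and without that library the averaged Chac1 change was 1.26. Which cells held the Chac1, Slc1a4 or Mthfd2 transcripts was not tested, and in whole ganglia fewer cells of a type and less RNA per cell cannot be told apart.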

How the data were processed

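Messenger RNA was sequenced with the QuantSeq 3′ kit as single reads, per the labels' protocols. The authors deposited a file of raw counts by gene symbol for each library, as the headers state. Per the submitters' processing notes, mm10, Bowtie2 and bedtools were used. The handling of strand, multiple mapping and molecular identifiers was not given in the sources used here. Rows of a repeated symbol (35 symbols) were summed. Totals were 12476606 to 15520746 counts, of which the ribosomal RNA row Rn45s took 6.14% to 11.2%.

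Genes were kept by filterByExpr (minimum count 10), scaled by TMM factors (0.914 to 1.07) and fitted with a coefficient per group over all 12 libraries in edgeR 4.0.16 (R 4.3.3). Two-sided quasi-likelihood F tests were adjusted by Benjamini-Hochberg over 15036 genes, and genes with adjusted p below 0.05 were called; only these are said to rise or fall. Levels are CPM on TMM-scaled totals. The fit was also run on simulated counts with the same spread for every gene and no library set apart. That run does not cover libraries such as Male SNI replicate 2. No pair of replicates agreed within sampling noise (chi-square per gene at least 8.51). Alternatives were DESeq2 1.42.0 size factors and test, no filter on low counts, each library left out, the replicate block, leaving out Male SNI replicate 2 and Female sham replicate 2, limma 3.58.1 with quality weights, Rn45s left out, and each sex fitted alone.

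The members, lists and tests were chosen with earlier results of these data known. All members were described; of other lists, the called genes (at most 8 a list) and the gene with the highest mean CPM, and the 5 nearest profiles to Chac1 and Atf4. Exon overlaps came from GENCODE vM21, and the last 500 bases of transcripts were compared for near-identical copies; no member had one.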

Additional observations from a re-analysis of the deposited data

How the results depend on the processing

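No averaged change of a member or called gene changed direction under any alternative run. Nor did the changes of Chac1 in each sex, that of Atf4 in males, or the interactions of Atf4 and Ddit4. Some other interactions, none of them called, did. That of Hspa5 was 0.13 with all libraries and -0.01 without Male SNI replicate 2. For Slc1a4 it was 0.42, and -0.08 without Male SNI replicate 2 and Female sham replicate 2. For injury averaged over the sexes, 1 member was called, and 2 (Chac1 and Atf4) both without Male SNI replicate 2 and Female sham replicate 2 and with limma's quality weights; with 1 library left out the count was 1 to 2. For females it was 0, and 1 (Chac1) with the DESeq2 test, without those 2 libraries, with quality weights and with the 6 female libraries alone; with 1 library left out it was 0 to 1. For males it was 2, but 1 with the replicate block, 0 with the 6 male libraries alone, and 0 to 2 with 1 library left out. For the interaction it was 0 under every alternative. Of the wider lists, 10 genes were called, 22 without the 2 libraries, 20 with quality weights and 5 to 17 with 1 library left out; the lowest counts, 5 and 6, came without any Female SNI replicate, Female sham replicate 1 or 3, or Male sham replicate 1 or 3. DESeq2's size factors and leaving out Rn45s gave the same 10 genes, and Aars and Wars were lost without the filter on low counts. Over all tested genes 569 rose and 411 fell in the main fit, 1023 and 825 without the 2 libraries, and 1025 and 983 with quality weights. The cause of these differences was not tested. Deviations from the group means correlated between -0.158 and 0.142 for same-numbered libraries, apart from Female sham with Male SNI, whose 3 pairs were all above 0.1 (0.133 to 0.582); since within neither sex all pairs of SNI and sham were above 0.1, the numbers were not taken to pair the libraries. With the replicate block Atf4 in males was the member lost, and 13 genes of the wider lists were called, with Gclc, Shmt2 and Vegfa added. Depth limits Sesn2 and Slc7a11, with as few as 6 and 2 counts.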
